A study of Mus musculus with 6 samples.

Results

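The genes of polyamine synthesis, of its feedback control and of the hypusine modification were examined in 2 subsets of splenic germinal centre B cells that the labels call DP and DN. The members were 10 genes chosen by name from the 55401 genes of the deposited tables: Odc1, Srm, Sms, Amd1, Oaz1, Oaz2, Azin1, Sat1, Dhps and Dohh. All 10 were found, 9 passed the filter on low counts and were tested, and Dohh did not pass. The subsets were compared in 3 DP and 3 DN libraries of sorted cells from wild-type C57BL/6 mice. No transgene or gene deletion is named. All mice had been given sheep red blood cells into the peritoneal cavity, a further dose followed on day 5, and spleens were taken on day 12. The labels give no animal age and do not say which surface markers define the subsets.

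Polyamines are small positively charged molecules that bind nucleic acids and are needed by dividing cells. Ornithine is decarboxylated to putrescine, which is lengthened to spermidine and then to spermine with aminopropyl groups taken from decarboxylated S-adenosylmethionine. Antizymes hold the first enzyme in check, antizyme inhibitor releases it, and an acetyltransferase marks polyamines for export or breakdown. Spermidine also donates part of itself to a single lysine of the translation factor eIF5A, and the resulting amino acid, hypusine, is needed for that factor to relieve stalled ribosomes. In lymphocytes the pathway is known to be induced on activation and growth.

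The DP libraries held 17509384 to 20538024 reads in genes and the DN libraries 8904415 to 11897360. Levels are given as CPM, read counts scaled to a common library size with TMM factors (a correction for library composition), as mean ± SD over 3 libraries. Changes are log2 fold changes of DP over DN ± standard error, and genes with an adjusted p below 0.05 were called. According to the design text, DP and DN cells came from the same 3 mice, but the labels do not assign libraries to animals. The p-values therefore reflect the spread between libraries alone, and that spread may be technical. In bulk libraries, a smaller share of cells expressing a gene and less RNA of it per cell cannot be told apart. Of 12 germinal centre B cell markers, all were detected in both subsets, with 1 higher and 11 lower in DP, where 38.3% of all tested genes were higher and 37.6% lower. They summed to between 2000 and 2050 CPM in DP libraries and to between 4870 and 4970 CPM in DN libraries.

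The synthetic enzymes and the first hypusine enzyme were higher in DP, except that Sms showed no difference (0.00) with library totals alone as the scaling, and the antizymes, antizyme inhibitor and the catabolic acetyltransferase were lower. Of the 9 tested members, 5 rose and 4 fell in DP. Across all 11296 genes tested, 75.9% were called, 38.3% as higher and 37.6% as lower in DP, so being called is common in this comparison. At least 2-fold rises were seen for 4 members, Srm, Odc1, Amd1 and Dhps, against 12.3% of all tested genes. A fall of at least 2-fold was seen for 1 member, Sat1, against 12.8% of all tested genes. Tested against a minimum of 1.5-fold, 4 members were higher and 1 was lower, and 34.3% of all tested genes were called. The median change of the tested members was 0.20, beside 0.01 for all tested genes. For all 9 tested members the 3 DP libraries lay wholly above or wholly below the 3 DN libraries, as they did for 76.9% of tested genes.

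**Figure D1:**
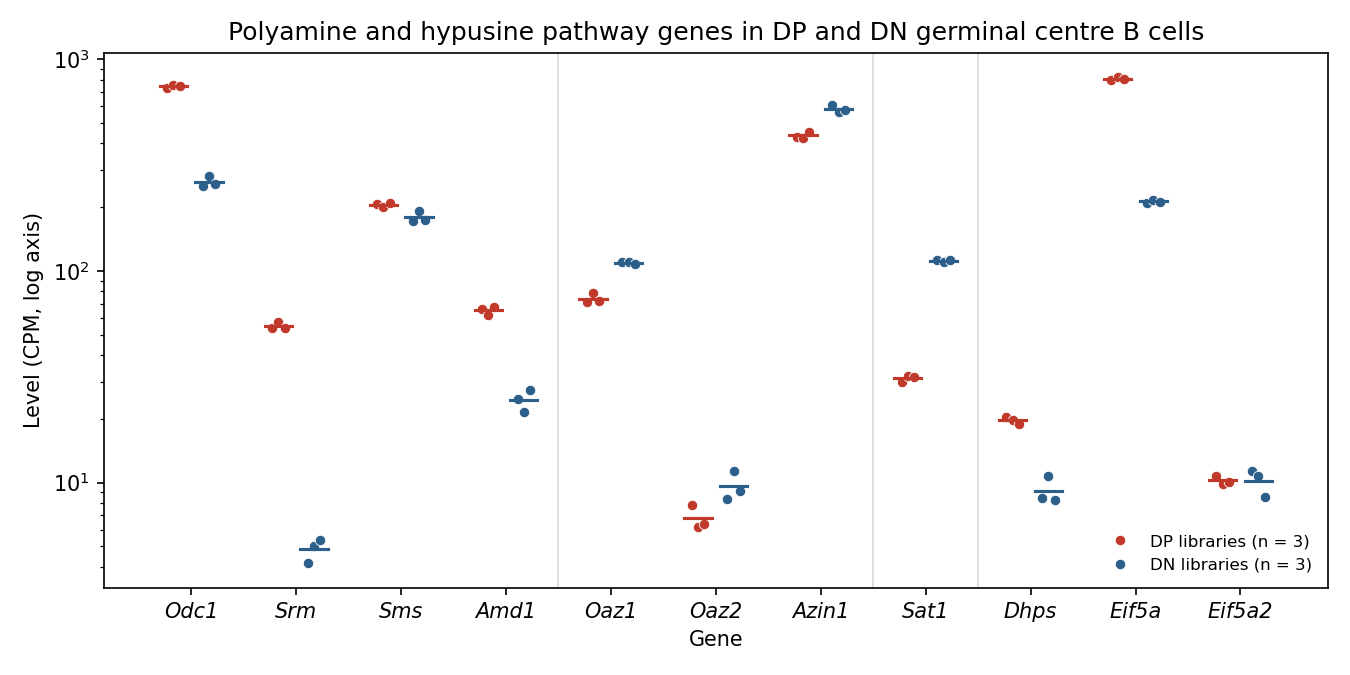
Level of each tested member and of the 2 eIF5A genes in CPM on a log axis, with 1 point per library, DP left of DN, and a bar at the mean of 3 libraries. Vertical lines part the synthetic enzymes, the antizyme system, the acetyltransferase and the hypusine genes. Srm shows the widest gap among the members, with 53.8 to 57.2 CPM in DP and 4.16 to 5.33 CPM in DN, and the Eif5a2 libraries overlap.

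Odc1 encodes ornithine decarboxylase, the first and rate-limiting enzyme of the pathway. It lies on the + strand of chromosome 12 from 17544794 to 17551505 (mm10, as are all positions below). Odc1 was at 730, 754 and 743 CPM in the DP libraries, against 252, 281 and 256 CPM in the DN libraries. Every DP library was above every DN library, and the spread within each subset was small beside the gap. Odc1 rose by 1.5 ± 0.04 on the log2 scale, a 2.82-fold difference (edgeR adjusted p = 3.11e-41). It took 45.3% of the members' summed CPM in DP and 20.3% in DN.

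Srm encodes spermidine synthase, which turns putrescine into spermidine, and lies on the + strand of chromosome 4 from 148591503 to 148594993. It was at 53.8, 57.2 and 54.0 CPM in DP libraries, against 4.16, 5.03 and 5.33 CPM in DN libraries. Its DN values rest on 53, 48 and 52 reads, well above the floor of 3 counts, and its DP values on 907, 1106 and 884 reads. Srm rose by 3.52 ± 0.10, or 11.5-fold, with an edgeR adjusted p of 1.17e-39. Of the genes tested, 0.531% rose by more.

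Amd1 encodes S-adenosylmethionine decarboxylase, which makes the aminopropyl donor for both synthases. The gene lies on the - strand of chromosome 10 from 40287458 to 40302186. Amd1 was at 66.3, 62.1 and 67.5 CPM in DP libraries, against 24.9, 21.6 and 27.4 CPM in DN libraries. The groups did not overlap, and Amd1 rose by 1.40 ± 0.07, or 2.64-fold (edgeR adjusted p = 1.93e-27). Reads of Amd1 can be shared with a near-identical intronless copy, Amd2, which had 19, 22 and 23 counts in DP and 5, 7 and 2 counts in DN. Of the Amd pseudogenes, all too scarce to be tested, Amd-ps3 had the most reads, with 3, 15 and 5 counts in DP and 0, 5 and 3 counts in DN.

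Sms encodes spermine synthase, which turns spermidine into spermine, and lies on the - strand of chromosome X from 157443855 to 157492287. It was at 207, 201 and 209 CPM in DP libraries, against 172, 192 and 174 CPM in DN libraries. The lowest DP library stood only a little above the highest DN library. Sms rose by 0.20 ± 0.04, or 1.15-fold, with an edgeR adjusted p of 1.93e-05. With library totals alone as the scaling, which lowers the median gene by 0.20, its change was 0.00 and the call was lost (adjusted p = 0.965). Its named pseudogene Sms-ps was at 2.50 ± 0.78 CPM in DP and 2.18 ± 0.115 CPM in DN.

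Antizymes are made only when the ribosome shifts frame at the stop codon of a first short reading frame, a step that polyamines favour. The stretch around that stop codon is shown for Oaz1 (chromosome 10) and Oaz2 (chromosome 9) because it is the site of the feedback that these genes carry out. It was read from those GENCODE M21 transcripts that keep the skipped base, as DNA letters from 5′ to 3′ of the coding strand, with the stop codon in capitals.
Oaz1: cggtggtgctccTGAtgtccctcaccc
Oaz2: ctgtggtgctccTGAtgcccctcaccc
The 2 stretches share 25 of 27 bases. Both were located by the same run of letters around the stop codon, so part of this identity was fixed by the search. The deposited values count reads per gene and hold no measure of frameshifting.

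Oaz1 encodes antizyme, which binds ornithine decarboxylase and leads it to the proteasome. The gene lies on the + strand of chromosome 10 from 80826656 to 80829290. Oaz1 was at 71.2, 78.5 and 72.3 CPM in DP libraries, against 110, 110 and 108 CPM in DN libraries, which lay close together and above every DP library. It fell by 0.56 ± 0.05 on the log2 scale, with an edgeR adjusted p of 2.95e-16. The pseudogene Oaz1-ps had 10, 11 and 4 counts in DP libraries and 10, 9 and 7 counts in DN libraries, and was not called (-0.76 ± 0.44, edgeR adjusted p = 0.106).

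Oaz2 encodes a second antizyme and lies on the + strand of chromosome 9 from 65668001 to 65690300. It was far less abundant, at 7.83, 6.16 and 6.35 CPM in DP libraries, against 8.40, 11.4 and 9.12 CPM in DN libraries. The highest DP library came close to the lowest DN library without overlapping it. Oaz2 fell by 0.50 ± 0.13 (edgeR adjusted p = 0.000793).

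Azin1 encodes antizyme inhibitor, a relative of ornithine decarboxylase that has no decarboxylase activity and binds antizyme in its place. It lies on the - strand of chromosome 15 from 38487427 to 38519266. Azin1 was at 429, 426 and 454 CPM in DP libraries, against 606, 563 and 574 CPM in DN libraries. It fell by 0.41 ± 0.04 (edgeR adjusted p = 1.22e-15), so that antizyme and its inhibitor were both lower in DP. An antisense gene, Gm49077, overlaps 358 of its exon bases and had no more than 5 counts in any library. The falls of Oaz1, Oaz2 and Azin1 did not pass against a minimum of 1.5-fold, with edgeR adjusted p of 0.851, 0.898 and 1.

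Sat1 encodes spermidine/spermine acetyltransferase, the first enzyme of polyamine breakdown and export, and lies on the - strand of chromosome X from 155213132 to 155216449. Sat1 was at 29.8, 31.9 and 31.6 CPM in DP libraries, against 113, 110 and 112 CPM in DN libraries. The libraries of each subset lay close together and the subsets were far apart. Sat1 fell by 1.84 ± 0.05, so that DN was 3.59-fold higher (edgeR adjusted p = 1.26e-38). Among tested genes, 4.15% fell by more. Its levels made up 1.90% of the members' summed CPM in DP and 8.64% in DN.

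Markers of other spleen cells were examined beside these changes, and those of macrophages moved in the same direction as Sat1. Of 9 tested macrophage markers, 8 fell and 1, Cd68, rose in DP. The 12 markers of that list summed to between 15.7 and 18.5 CPM in DP libraries and to between 31.8 and 35.4 CPM in DN libraries, and none was at 0 in every library of a subset. Sat1 alone was above that sum in every library, but a sum of chosen markers does not measure how much Sat1 RNA such cells hold. All 8 tested erythroid markers fell as well, with sums of 16.9 to 18.9 CPM in DP and 65.0 to 74.7 CPM in DN. Of 3 tested neutrophil markers, all fell, with sums of 0.889 to 1.29 CPM in DP and 3.92 to 5.66 CPM in DN. Elane and Mpo were at 0 in all DP libraries and had 2 counts and 1 count in the DN libraries together. Of 2 tested T cell markers Lck rose, at 57.8 ± 1.41 CPM in DP and 50.7 ± 4.00 CPM in DN, and Cd4 fell, at 0.570 ± 0.0218 CPM in DP and 1.27 ± 0.229 CPM in DN. Lck made up nearly all of the T cell list's sum, which was 57.8 to 60.6 CPM in DP and 50.2 to 58.7 CPM in DN. The 3 CD3 chain genes were too scarce to be tested and lay below every DN library in each DP library by CPM, and Icos was at 0 in all DN libraries and had 2 counts in DP. Of 5 tested plasma cell markers 3 rose and 1 fell, with sums of 297 to 310 CPM in DP and 390 to 402 CPM in DN. Jchain, the one that fell, was at 154 ± 2.37 CPM in DP and 277 ± 5.79 CPM in DN, and the other 4 tested markers lay above every DN library in each DP library. Tnfrsf17 was at 0 in all DP libraries and had 3 counts in DN. The part of these cell types in the members' changes was not tested.

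Hypusine is made on eIF5A in 2 steps, by deoxyhypusine synthase, which uses spermidine, and then by deoxyhypusine hydroxylase. The codon of the modified lysine, codon 50, is shown in capitals within the coding strand of Eif5a (chromosome 11) and Eif5a2 (chromosome 3), read from GENCODE M21 transcripts, because these genes encode the only known substrates of the pathway.
Eif5a: tcgaagactggcAAGcatggccatgcc
Eif5a2: tccaagactgggAAGcatggtcatgcc
Around this codon 24 of 27 bases were the same in both genes. Only transcripts with a lysine codon at this place were kept, so part of this identity was fixed by the search.

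Dhps encodes deoxyhypusine synthase and lies on the + strand of chromosome 8 from 85071757 to 85075162. It was at 20.5, 19.8 and 19.0 CPM in DP libraries, against 8.48, 10.7 and 8.30 CPM in DN libraries, with no overlap. Dhps rose by 1.12 ± 0.11, or 2.17-fold (edgeR adjusted p = 1.48e-14). Its exons overlap those of Wdr83 on the opposite strand by 128 bases, and the strand setting of the counting is not given in the sources used here. Wdr83 was at 14 ± 0.257 CPM in DP and 11.9 ± 1.58 CPM in DN (0.24 ± 0.11). Its part in the Dhps count was not tested.

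Dohh encodes deoxyhypusine hydroxylase and lies on the + strand of chromosome 10 from 81384428 to 81388352. It had 8, 15 and 8 counts in DP libraries and 1, 0 and 5 counts in DN libraries. These correspond to 0.474, 0.776 and 0.488 CPM in DP and to 0.0785, 0 and 0.512 CPM in DN, where 3 counts amount to 0.155 to 0.183 CPM in DP and to 0.235 to 0.315 CPM in DN. The subsets overlap, and the gene was too scarce to be tested. Over the summed counts of 31 in DP and 6 in DN the scaled ratio was 3.15, with a 95% exact counting interval of 1.29 to 9.23 that covers counting error only. Of its 2048 exon bases, 972 are shared with Gm48551, a gene on the same strand that had 0 counts in every library. Where the counting sets aside reads that fall on more than 1 gene, reads from those bases are in neither count, so the level of Dohh may be understated.

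Eif5a, the factor that carries hypusine, was at 796, 820 and 806 CPM in DP libraries, against 210, 217 and 211 CPM in DN libraries. It rose by 1.92 ± 0.04, or 3.80-fold, with an edgeR adjusted p of 1.51e-47. Its paralogue Eif5a2 was at 10.8, 9.83 and 10.1 CPM in DP libraries and at 11.3, 10.7 and 8.51 CPM in DN libraries. These ranges overlap, and the change of Eif5a2 was 0.00 ± 0.12 (edgeR adjusted p = 0.989). Processed copies of Eif5a make its count uncertain to the extent that reads were split among them, although the copy that carries its name, Eif5al3-ps, had at most 3 counts in any library.

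Ratios between genes of the same library do not depend on the scaling, and 8 were compared after division by exon length. Odc1 stood at 7.70, 7.21 and 7.71 times Oaz1 in DP libraries and at 1.72, 1.93 and 1.79 times in DN libraries. Odc1 stood at 3.13, 3.25 and 3.00 times Azin1 in DP libraries and at 0.763, 0.917 and 0.820 times in DN libraries, so Azin1 was the more abundant of this pair in every DN library and Odc1 in every DP library. The ratio of Srm to Sms was 1.01 ± 0.0563 in DP and 0.101 ± 0.0123 in DN. The ratio of Amd1 to Srm was 0.537 ± 0.0412 in DP and 2.32 ± 0.381 in DN.

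Among the 8 ratios the widest gap was between Sat1 and Srm, that is, between the enzyme that acetylates spermidine and the enzyme that makes it. These members had the largest fall and the largest rise, so their ratio combines changes already given. The Sat1 to Srm ratio was 0.320, 0.322 and 0.337 in DP libraries, against 15.7, 12.6 and 12.1 in DN libraries. The log2 difference was -5.36, which makes the ratio 41.0-fold lower in DP. The ratio of Eif5a to Dhps was 38.0, 40.5 and 41.5 in DP libraries, against 24.2, 19.9 and 24.9 in DN libraries. That of Oaz1 to Oaz2 was 10.6, 14.9 and 13.3 in DP libraries, against 15.3, 11.2 and 13.8 in DN libraries, a log2 difference of -0.06. For 6 of the 8 ratios the subsets did not overlap and the exact two-sided permutation p was 0.1 (0.133 adjusted over the 8 ratios), which is the smallest that 3 against 3 libraries can give. For Oaz1 to Oaz2 the exact permutation p was 0.7, and for Dhps to Dohh, which rests on very few Dohh reads and was computed with 0.5 added to each count, it was 0.5.

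**Figure D2:**
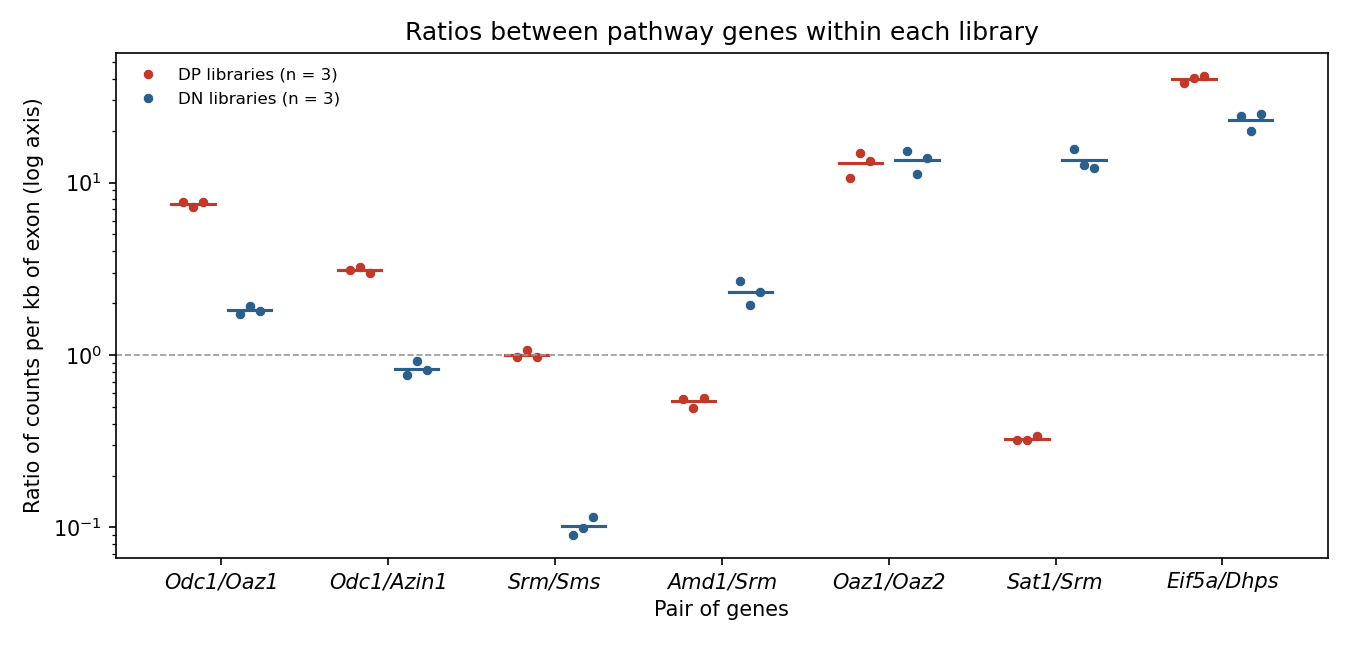
Ratio of counts per kilobase of exon between 7 pairs of genes, on a log axis, with 1 point per library, DP left of DN, and a bar at the mean of 3 libraries. The dashed line marks equal levels. Odc1 lies above Azin1 in DP (3.00 to 3.25) and below it in DN (0.763 to 0.917), and Sat1 lies below Srm in DP (0.320 to 0.337) and above it in DN (12.1 to 15.7).

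The order of the members by level per kilobase of exon also differed between the subsets. In DP the order was Odc1 (218 ± 3.45 CPM per kilobase), Azin1 (69.8 ± 2.46), Srm (34.4 ± 1.22), Sms (34.2 ± 0.695), Oaz1 (28.9 ± 1.54), Amd1 (18.4 ± 0.804), Sat1 (11.2 ± 0.406), Dhps (8.5 ± 0.329), Oaz2 (2.27 ± 0.305) and Dohh (0.283 ± 0.0832). Of these neighbours, Srm and Sms overlapped between libraries and the others did not. In DN it was Azin1 (92.9 ± 3.54), Odc1 (77.2 ± 4.61), Oaz1 (42.6 ± 0.504), Sat1 (40.2 ± 0.542), Sms (29.9 ± 1.79), Amd1 (6.95 ± 0.817), Dhps (3.94 ± 0.574), Oaz2 (3.23 ± 0.529), Srm (3.03 ± 0.380) and Dohh (0.0962 ± 0.135). Here Dhps overlapped Oaz2, and Oaz2 overlapped Srm. Srm was thus level with Sms in DP and next to last in DN. The lengths are of all annotated exons together, so a gene whose cells use a short transcript is understated.

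**Figure D3:**
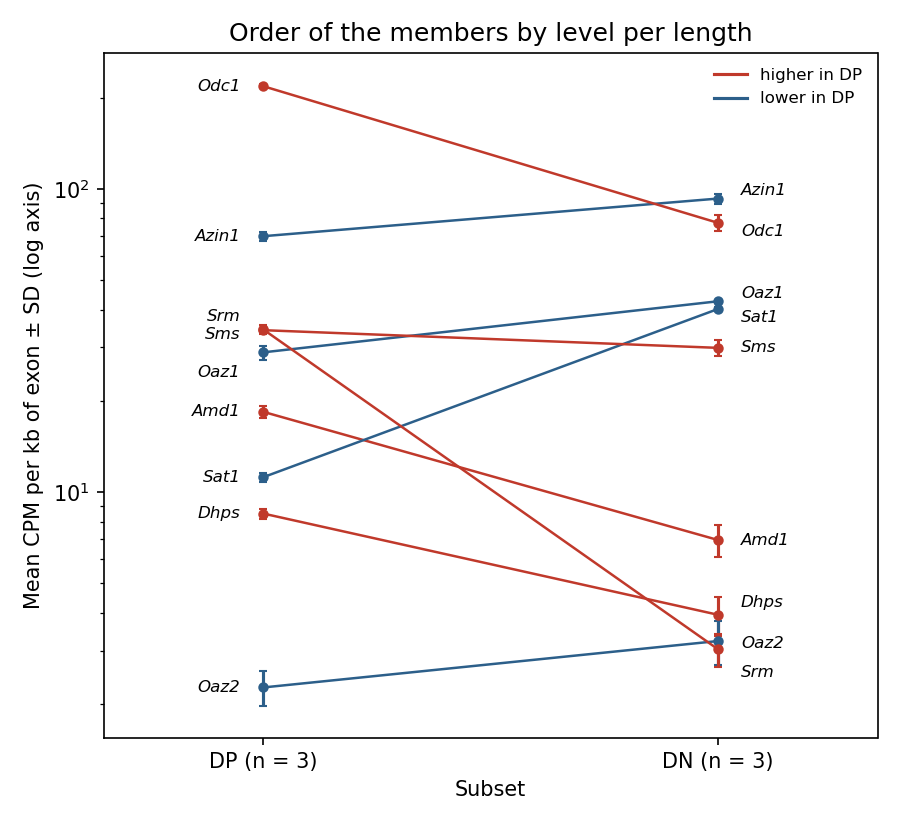
Mean level per kilobase of exon of the 9 tested members on a log axis, DP at the left and DN at the right, with bars for the SD over 3 libraries and a line for each gene coloured by whether it was higher or lower in DP with TMM factors (with library totals alone Sms was at 0.00). Srm joins Sms in DP (34.4 and 34.2 CPM per kilobase) and Oaz2 in DN (3.03 and 3.23 CPM per kilobase).

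Beyond the members, 40 genes in 5 lists that feed, use or carry polyamines were examined. Of the 24 that were tested, 17 rose, 3 fell and 4 were not called in DP. Over all tested genes 38.3% were higher and 37.6% lower. The median change of the 24 was 0.83, beside 0.01 for all tested genes. Another 16 were too scarce to be tested. The first of the lists holds Eif5a and Eif5a2, given above, with the antizyme and inhibitor genes Oaz3, which had 0 counts in every library, and Azin2, which had at most 3.

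Genes that supply S-adenosylmethionine or recover methylthioadenosine, the by-product of both synthases, were mostly higher. Of 9 tested, 7 rose, 1 fell and 1 was not called, with a median of 1.36. Mtap, which cleaves methylthioadenosine, rose to 45.3 ± 2.64 CPM in DP, against 11.3 ± 0.990 CPM in DN (2.01 ± 0.08, edgeR adjusted p = 3.21e-30). Enoph1, a later enzyme of the same salvage route, rose to 37.8 ± 0.550 CPM in DP, against 12.0 ± 1.07 CPM in DN (1.67 ± 0.08). Mat2a, the catalytic subunit that makes S-adenosylmethionine, was at 122 ± 3.25 CPM in DP and 48.5 ± 2.72 CPM in DN (1.33 ± 0.05), whereas its regulatory partner Mat2b fell to 33.3 ± 1.08 CPM in DP, against 42.0 ± 4.17 CPM in DN (-0.33 ± 0.07). Ahcy, which clears S-adenosylhomocysteine left by methylation, rose by 1.36 ± 0.05.

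In the arginine and ornithine supply list 5 of 7 tested genes rose and 2 were not called, with a median of 0.70. The cationic amino acid transporter Slc7a1 rose to 193 ± 4.27 CPM in DP, against 78.1 ± 4.08 CPM in DN (1.31 ± 0.04, edgeR adjusted p = 1.13e-34). Aldh18a1, which makes the glutamate semialdehyde precursor of proline and ornithine, rose by 1.33 ± 0.08, the arginine-making enzyme Ass1 by 0.78 ± 0.09 and the transporter Slc7a6 by 0.70 ± 0.10. The arginases, which release ornithine from arginine, were near absent: Arg1 had 2 counts in the DP libraries together and 1 in the DN libraries, and Arg2 had 0 in DP and 1 in DN. Oat, the ornithine aminotransferase of the same list, was not scarce. It was at 96.4 ± 2.73 CPM in DP and 87.6 ± 3.66 CPM in DN, a small rise of 0.14 ± 0.05.

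Transport and oxidation genes moved in both directions. Slc3a2, the heavy chain shared by several amino acid transporters and also linked to polyamine export, rose to 153 ± 3.25 CPM in DP, against 49.1 ± 0.935 CPM in DN (1.64 ± 0.05). Of the lysosomal and endosomal polyamine pumps, Atp13a3 rose by 0.33 ± 0.05 and Atp13a2 fell by 0.57 ± 0.09. Among oxidation genes, Smox, the spermine oxidase, fell by 2.66 ± 0.48 (edgeR adjusted p = 1.72e-06), on 6, 3 and 1 counts in DP and 14, 15 and 11 counts in DN. Leaving out 1 library at a time moved the change of Smox between -3.37 (without DP replicate 1) and -2.28 (without DP replicate 3). Paox, which oxidises acetylated polyamines, had 52, 56 and 39 counts in DP and 27, 14 and 8 counts in DN and rose by 0.87 ± 0.26, and Aldh9a1, an aldehyde dehydrogenase, rose by 0.58 ± 0.06. In each of these lists, 2 of 3 tested genes rose and 1 fell, with medians of 0.33 for transport and 0.58 for oxidation.

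**Figure D4:**
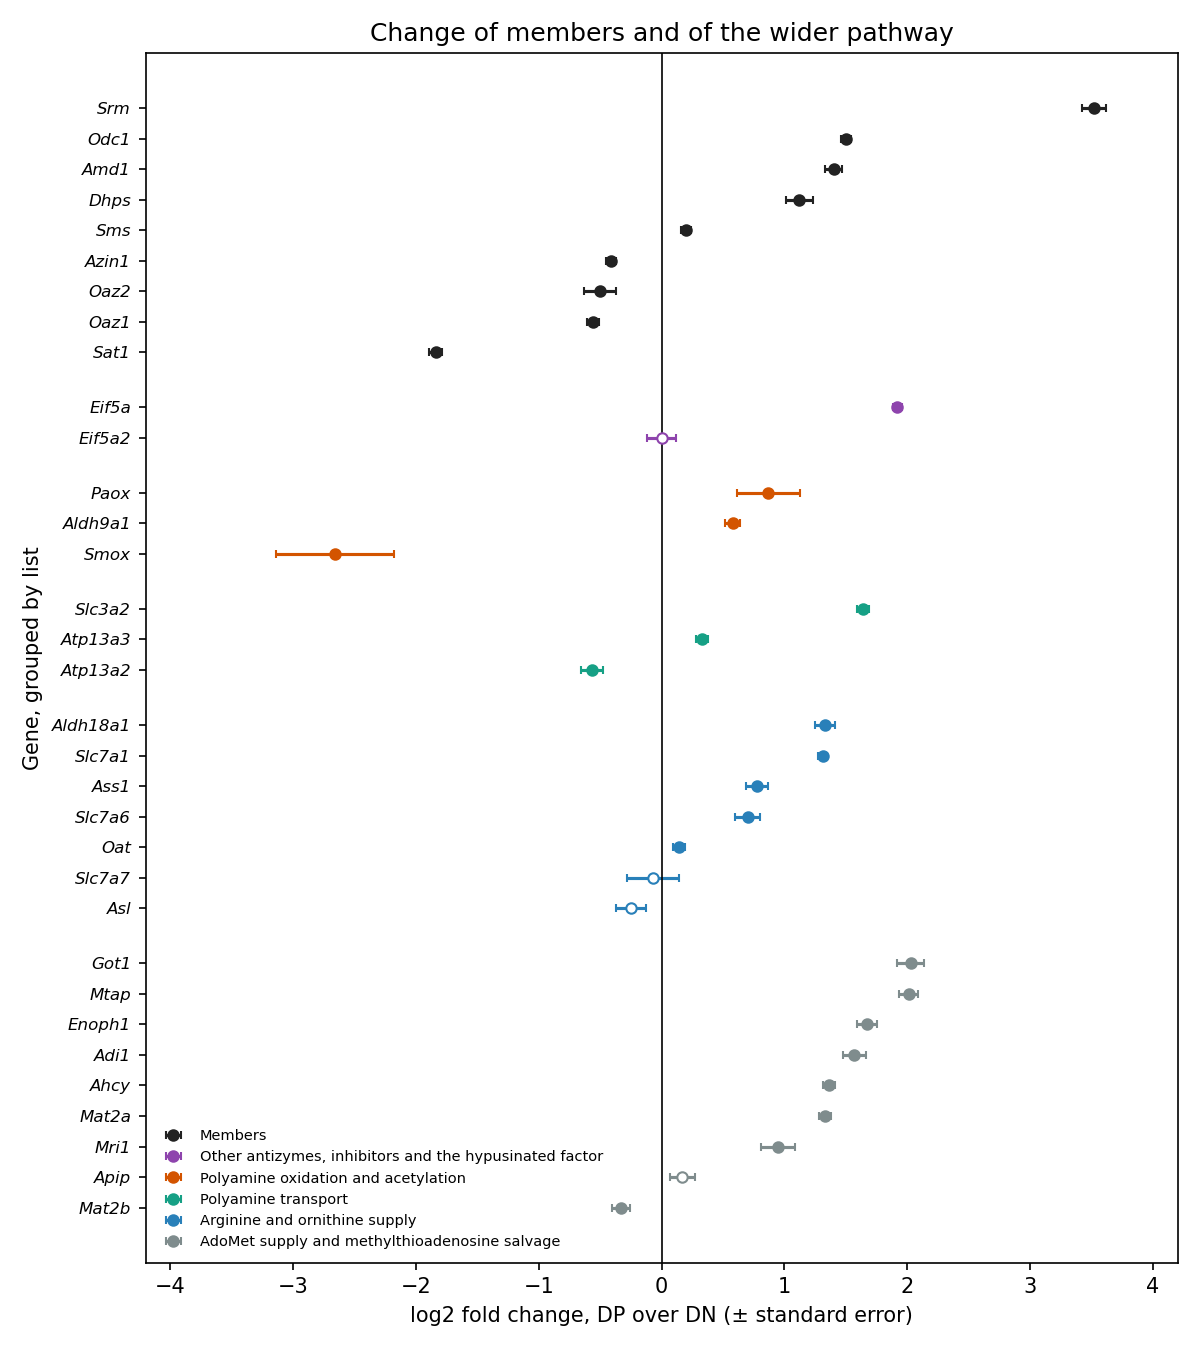
log2 fold change of DP over DN with its standard error for the 9 tested members and the 24 tested genes of the 5 wider lists, grouped and coloured by list. Filled points passed an adjusted p of 0.05 and open points did not. Srm lies farthest right (3.52 ± 0.10) and Smox farthest left (-2.66 ± 0.48).

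The tested protein-coding genes whose profile over the 6 libraries lay nearest to that of Odc1, by Euclidean distance of centred log2 CPM, were Trmt6 (distance 0.0619), Ksr1 (0.0672) and Ebna1bp2 (0.0781). Trmt6 was at 152 ± 1.72 CPM in DP and 54.1 ± 2.86 CPM in DN, and Ebna1bp2 at 296 ± 2.98 CPM in DP and 107 ± 7.75 CPM in DN. Over 2 subsets, such nearness says little more than that the changes were similar in size. Myc, a transcription factor known to act on Odc1, was at 62.4, 61.3 and 62.3 CPM in DP libraries, against 4.95, 5.56 and 5.43 CPM in DN libraries (3.55 ± 0.09, edgeR adjusted p = 2.02e-41).

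MYC binds the letters CACGTG, known as the E-box, together with its partner MAX. Promoter windows of 300 bases, 250 before and 50 after the start site, were taken from RefSeq on GRCm38.p6 and matched 8 of the 10 members with 9 windows. The letters read the same on both strands. They were present in 2 of the 9 windows, 1 of Sms and the 1 of Dohh, and in 7.15% of the 32851 windows in the table. The windows of Odc1, Amd1, Oaz1, Oaz2, Sat1 and Dhps did not hold them. Sequence more than 250 bases before or 50 bases after a start site, such as introns farther into a gene, was not searched. Srm and Azin1 were not matched. For Eif5a, 3 of 6 windows held the letters, at 2 distinct places since 2 of these windows overlap, and the single window of Eif5a2, whose change was 0.00 ± 0.12, held them 2 times. The Odc1 window is shown as that of the rate-limiting enzyme. For Sms, a member with a small rise, the window that holds the letters is shown, and its other window does not hold them. For Eif5a, the hypusine carrier, a window that holds the letters is shown. Any CACGTG is in capitals, and each is written 5′ to 3′ on the strand of its gene. The Odc1 window is chr12:17544623-17544922 (+), that of Sms is chrX:157492238-157492537 (-) and that of Eif5a is chr11:69921337-69921636 (-).
Odc1: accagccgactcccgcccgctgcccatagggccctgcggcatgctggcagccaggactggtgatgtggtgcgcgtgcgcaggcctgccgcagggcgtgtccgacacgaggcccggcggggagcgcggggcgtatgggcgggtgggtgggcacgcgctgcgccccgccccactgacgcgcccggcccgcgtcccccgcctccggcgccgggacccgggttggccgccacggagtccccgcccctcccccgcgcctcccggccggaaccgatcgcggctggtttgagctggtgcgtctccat
Sms: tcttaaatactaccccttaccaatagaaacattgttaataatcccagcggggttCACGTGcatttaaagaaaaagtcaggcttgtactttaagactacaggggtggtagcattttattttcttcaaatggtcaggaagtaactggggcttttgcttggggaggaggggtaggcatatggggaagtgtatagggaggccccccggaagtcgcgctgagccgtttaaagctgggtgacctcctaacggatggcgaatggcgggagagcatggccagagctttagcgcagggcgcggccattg
Eif5a: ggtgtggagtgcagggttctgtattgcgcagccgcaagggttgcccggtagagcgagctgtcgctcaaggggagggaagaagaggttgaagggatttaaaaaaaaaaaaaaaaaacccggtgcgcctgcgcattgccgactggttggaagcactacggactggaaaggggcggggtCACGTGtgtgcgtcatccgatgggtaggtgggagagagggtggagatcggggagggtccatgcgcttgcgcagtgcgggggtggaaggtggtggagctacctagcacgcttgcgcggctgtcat
The letters begin 196 bases before the Sms start site and 74 bases before the Eif5a start site. A match of letters is a description only, and these files hold no measure of binding.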

How the data were processed

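Polyadenylated RNA of sorted splenic germinal centre B cells was sequenced in 6 stranded libraries made from 2 ug of total RNA each, 3 titled DP and 3 titled DN, all with batch label 1. Each library has its own table of raw counts per gene, as deposited by the authors. The submitters' processing notes name HTSeq 0.13.5, STAR 2.7.10a, Trim Galore 0.6.6 and mm10. Settings, annotation release, strand handling and any use of molecular identifiers: not given in the sources used here. Merged strands would add antisense reads to a gene, and uncollapsed duplicates would make counting intervals too narrow.

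The 5 summary rows that name no gene, 9.56% of counts in DP and 12.6% in DN on average, were left out. The main comparison, DP over DN, was fitted on the whole table in R 4.3.3 with edgeR 4.0.16 and its quasi-likelihood test, with TMM factors, filterByExpr (minimum count 10, which left 11296 genes), Benjamini-Hochberg adjustment over all tested genes, robust estimation and no block. Standard errors came from the fitted change and its F statistic. Positions and exon lengths came from GENCODE M21 for mm10, promoters from RefSeq. The Amd1 record of the deposited tables carries a later version than that of M21, and the 2 were matched without the version. The exons counted for Amd1 may therefore differ from the length used for its level per kilobase. Libraries within a subset differed by more than sampling noise (chi-square per degree of freedom 1.96 to 3.26), and all 6 were kept. The fit was also run on simulated counts in which far fewer genes changed than were called here. That run cannot show how the scaling or the false calls behave in these data, and no result rests on it.

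The members, lists and tests were chosen with earlier results of these data known. Named were all members, Eif5a, Eif5a2, Myc, the 3 genes nearest Odc1, and up to 4 genes with the smallest p per wider list plus up to 2 in the rarer direction. Of same-named copies, those that were tested were named, with the scarce Amd-ps3 and Eif5al3-ps. The other untested copies were not named. Oaz3, Azin2, Arg1, Arg2, Oat, the genes that overlap a member and a few cell type markers were named outside that rule after their values were seen. Alternatives were other scalings (DESeq2 median-of-ratios, upper-quartile, library totals alone), no filter and a minimum count of 50, DESeq2 1.42.0, limma-voom (limma 3.58.1), no robust weights, a 1.5-fold minimum change, a threshold of 0.01, the replicate number as a block, each library left out, DP thinned to the DN depth, immunoglobulin genes left out and copies added to their parents. Leaving out the 10 most abundant genes was added after the data were seen.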

Additional observations from a re-analysis of the deposited data

How the results depend on the processing

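Under 21 alternative settings, Odc1, Srm, Amd1, Dhps and Sat1 kept their direction and their call, with log2 changes of 1.30 to 1.57, 3.33 to 3.60, 1.21 to 1.48, 0.92 to 1.24 and -2.04 to -1.77. The count of higher members was 5 in the comparison as reported, 4 with library totals alone (Sms at 0.00), 4 against a minimum fold of 1.5 and 6 without a filter, where Dohh was tested (1.67, edgeR adjusted p = 0.0281). The count of lower members was 1 against a minimum fold of 1.5 and that of lower wider pathway genes was also 1, in place of 4 and 3, by the construction of that test. Against that minimum 12 wider genes were higher, and in the other settings 16 to 18 were higher and 3 to 4 lower. With library totals alone 38.0% of called genes were higher in DP, in place of 50.5% with TMM factors or the replicate block. Leaving out 1 library at a time moved the log2 difference of the Oaz1 to Oaz2 ratio between -0.18 and 0.08, and that of the Dhps to Dohh ratio between -1.87 and 0.02. The sign of the first turned without DP replicate 1 (0.08) and without DN replicate 1 (0.05), and that of the second without DN replicate 2; the cause was not tested. The labels do not assign libraries to animals, so the replicate numbers were not taken as pairs. Deviations of same-numbered libraries from their group means correlated at 0.06, 0 and -0.01. With 3 libraries per subset, such values cannot show whether 2 libraries share a mouse. With the replicate block 5 members were higher and 4 lower, as without it, and 17 and 3 of the wider genes. Few counts limit the precision of Dohh, Smox and Paox.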
